A study of Mus musculus with 32 samples.

Results

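The effect of a mutant SOD1 transgene on motor neurons was set against that of a mutant tau transgene, gene by gene. The quantity throughout is a difference of log2 ratios: transgenic over littermate control in SOD1-G93A motor neurons, minus transgenic over control in TAU-P301L motor neurons. A negative value therefore means that the transgenic extracts were lower, relative to their own controls, in SOD1-G93A than in TAU-P301L mice. Genes entered where a probe was well above background in at least 4 of the 8 extracts of either model, which kept 13768 of the 27564 genes or single probes on the array. Of these, 13745 were measured in at least 3 pairs of each model and were tested, and 11829 of the 13768 have a gene symbol.

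The SOD1-G93A mice were B6SJL-Tg(SOD1-G93A)1Gur and their controls B6SJL littermates, all female and 8 weeks old. The TAU-P301L mice were B6D2F1-Tg(TAU-P301L) and their controls B6D2F1 littermates, all female and 16 weeks old. Model, age and genetic background differ together, so they cannot be told apart in the difference. The labels do not name the promoters that drive the transgenes. From each mouse 500 motor neurons of the lumbar anterior horn were cut by laser from cresyl violet stained sections, and the RNA was amplified before labelling. Each model has 4 pairs of a transgenic and a control extract, and each pair was hybridised to 2 arrays with the dyes exchanged, whose ratios were averaged.

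SOD1, the cytosolic copper-zinc superoxide dismutase, causes familial amyotrophic lateral sclerosis when mutated, and motor neurons are the cells that are lost. Tau, the product of Mapt, binds axonal microtubules, and the P301L change causes frontotemporal dementia with tau aggregates. Tau is also present in motor neurons of the spinal cord, whose long axons depend on microtubule transport.

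Signal differed strongly between the 2 scan batches given by the file headers. In scan 1, which holds pairs 3 and 4 of both models, 14.7% to 27.6% of probes were well above background per extract, and in scan 2, with pairs 1 and 2, 35.9% to 54.8%. The dye-exchanged arrays of a pair correlated with r of 0.21 to 0.67 in 3 SOD1-G93A pairs and 0.08 to 0.44 in 3 TAU-P301L pairs. In pair 3 this r was 0.0011 for SOD1-G93A and -0.20 for TAU-P301L. Each r is across the genes that entered, which had passed the background filter, and not across all probes. Of the 17 motor neuron markers on the array, 14 were well above background in at least 8 of the 16 extracts, among them Slc5a7, Nefm and Calcb in all 16, Isl1 in 14 and Chat, which makes acetylcholine, in 8. Vipr2 was not well above background in any extract and Ret in 1. Markers of other cells were also present, with 10 of 12 oligodendrocyte and 11 of 12 microglia markers above background in at least 8 extracts, while the oligodendrocyte marker Mog was above it in none. In such captured tissue, fewer cells of a type and less RNA per cell cannot be told apart.

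No gene differed between the models past the threshold. The limma test with scan as a block gave 0 of 13745 genes at an adjusted p under 0.05 (0%), and the lowest adjusted p was 0.609. At an unadjusted p under 0.05 there were 959 genes, against 687 that are 5% of those tested. Of these, 605 (4.40%) were lower and 354 (2.58%) higher in SOD1-G93A. This split moved to 216 against 73 when arrays were centred on their median in place of loess, and to 337 against 167 without TAU-P301L pair 4. The balance turned in either scan taken alone, to 405 against 609 in scan 1 and 226 against 412 in scan 2. It also turned without TAU-P301L pair 1, to 480 against 580, and was nearly even with array weights, at 526 against 492. The 4 pairs of one model lay wholly below those of the other for 353 of 13393 fully measured genes (2.64%) in the SOD1-G93A lower direction and for 228 (1.70%) in the other.

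The differences were small for most genes. Their median size was 0.08, 85.7% were under 0.25 on the log2 scale, and 8 genes passed 1. The median standard error was 0.09. Across the genes, the difference in scan 1 correlated with that in scan 2 with r of 0.15, and 53.7% of genes had the same sign in both. Among the 1171 genes well above background in all 16 extracts this r was 0.19 and the share 57.6%. Across the arrays of first and switched dye order, which hold the same extracts, r was 0.68. These are correlations across genes, which are not independent replicates, and the scans share no extract.

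**Figure D1:**
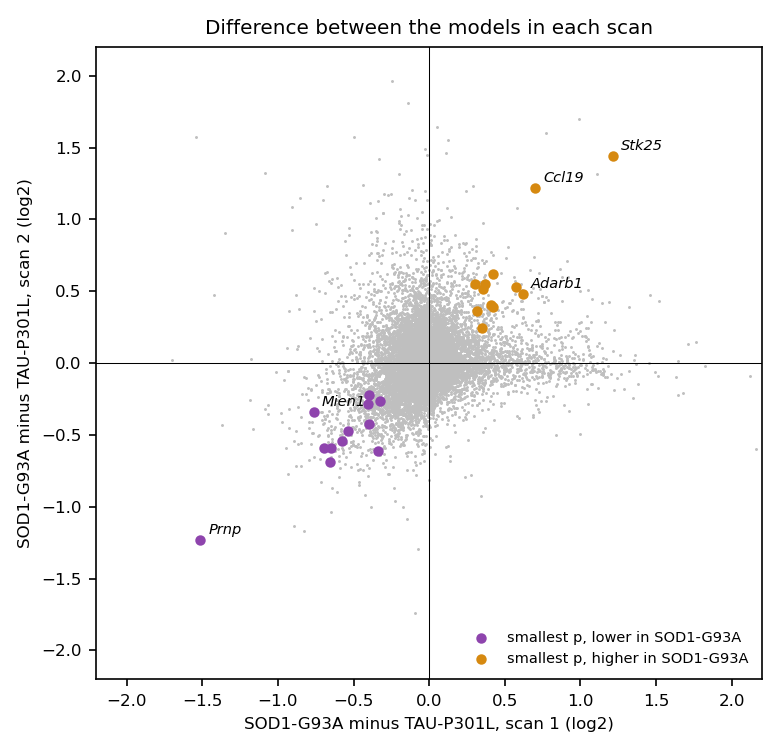
Difference between the models (SOD1-G93A minus TAU-P301L, log2) in scan 1 (horizontal axis) and scan 2 (vertical axis), 2 pairs of each model per scan. Each grey point is a gene, coloured points are the 12 genes with the smallest p in each direction, and 1 gene lies outside the axes. Prnp sits at -1.51 and -1.23, far from the cloud of genes, whose scans correlated with r of 0.15.

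The transgenes were considered first. The brightest mouse probes for Sod1, on chromosome 16, and Mapt, on chromosome 11, showed no difference beyond the spread of the pairs. Whether they bind the human transcripts is not given in the sources used here, so they do not check the labels. For Sod1 the SOD1-G93A pairs were at -0.06, -0.25, -0.15 and 0.13 and the TAU-P301L pairs at 0.21, 0.06, -0.02 and 0.00, a difference of -0.15 (SE 0.10, exact permutation p = 0.200). The ranges overlapped, and the 95% interval of the difference ran from -0.38 to 0.09. For Mapt the difference was 0.06 (SE 0.20, exact permutation p = 0.857), with an interval from -0.42 to 0.54. Its sign was negative in scan 1, at -0.27, and positive in scan 2, at 0.40. Less bright Mapt probes gave -0.26 and 0.24, so the direction of Mapt also depended on the probe.

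Prnp, which encodes the prion protein, a membrane-anchored glycoprotein abundant in neurons, showed the largest difference among the genes with the smallest p. It lies on chromosome 2. In the TAU-P301L pairs the transgenic over control log2 ratio was 1.23, 0.74, 0.96 and 1.41, a mean of 1.08 ± 0.29 (SD, n = 4). In the SOD1-G93A pairs it was -0.12, -0.38, 0.05 and -0.71, a mean of -0.29 ± 0.33 (SD, n = 4). Every TAU-P301L pair was above every SOD1-G93A pair, and the SOD1-G93A pairs lay on both sides of 0.

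The difference for Prnp was -1.37 (SE 0.21, 95% interval -1.86 to -0.89). The exact two-sided permutation test over the 70 ways to assign 4 of the 8 pairs gave p = 0.0286, the smallest it can give, and 0.0858 after Benjamini-Hochberg adjustment over the 3 genes tested this way. Exchanged only within scans, the exact p was 0.0556, the smallest of 36 ways. Over all genes the limma adjusted p was 0.609. The Prnp difference was the lowest of all 13745 genes tested, and the comparison was chosen with earlier results of these data known. The exact p therefore describes the difference and does not support it independently. Whether the Prnp probe also detects sequence carried by a transgene was not tested. The 2 scans gave -1.51 and -1.23, and over the alternatives tried the difference lay between -1.75 and -1.19. On the single-channel scale, the TAU-P301L transgenic extracts had a log2 level of 11.81 ± 0.09 (SD, n = 4) and their controls 10.73 ± 0.23 (SD, n = 4). In glia of the same models the ratios were 0.89 ± 0.19 (SD, n = 4) for TAU-P301L and -0.14 ± 0.58 (SD, n = 4) for SOD1-G93A, so the TAU-P301L mean was above that of SOD1-G93A in both cell types.

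Among the 12 genes with the smallest p that were lower in SOD1-G93A, Ndufc2 and Dap3 stood beside Prnp. Ndufc2, on chromosome 7, encodes a subunit of respiratory complex I. Its ratios were -0.11, -0.43, -0.15 and -0.37 in SOD1-G93A pairs and 0.53, 0.31, 0.46 and 0.34 in TAU-P301L pairs, a difference of -0.67 (SE 0.10, unadjusted p = 2.19e-04, adjusted p = 0.609 by limma). All SOD1-G93A pairs were below 0 and all TAU-P301L pairs above it. Complex I as a list was evenly divided: of 37 subunits tested 18 lay below 0 (48.6%, the share of all genes), and the median difference was 0.00. Of the 37, 2 lower and 1 higher had an unadjusted p under 0.05, beside 4.40% and 2.58% of all genes.

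Dap3, on chromosome 3, encodes a protein of the small subunit of the mitochondrial ribosome. The SOD1-G93A pairs were at 0.09, 0.20, -0.23 and -0.14 and the TAU-P301L pairs at 0.79, 0.59, 0.53 and 0.25, a difference of -0.56 (SE 0.08, unadjusted p = 2.55e-04, adjusted p = 0.609 by limma). The SOD1-G93A mean was -0.02 ± 0.20 (SD, n = 4), and the TAU-P301L pairs were the ones away from 0. In glia the TAU-P301L ratio for Dap3 was 0.59 ± 0.23 (SD, n = 4) and the SOD1-G93A ratio 0.12 ± 0.28 (SD, n = 4). Of 73 mitochondrial ribosome genes tested, 44 lay below 0 (60.3%, against 48.6% of all genes) with a median of -0.03. An unadjusted p under 0.05 was found for 5 lower and 2 higher, beside 4.40% and 2.58% of all genes. Among them were Mrps21 at -0.28 and Mrps33 at -0.28.

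Med10 and Map7d2 had little spread among the SOD1-G93A pairs. Med10, a subunit of the Mediator complex that links transcription factors to RNA polymerase, was at -0.29, -0.36, -0.40 and -0.39 in SOD1-G93A and 0.18, 0.36, 0.01 and 0.51 in TAU-P301L, a difference of -0.62 (SE 0.11). Map7d2, which binds microtubules and works with kinesin, was at -0.31, -0.19, -0.17 and -0.38 in SOD1-G93A, with a difference of -0.41 (SE 0.07). A second Map7d2 probe of lower signal gave -0.11. For Mien1 the pairs had their largest distance from 0 in the scan 1 pairs of SOD1-G93A, at -0.55 and -0.74, against -0.08 and -0.31 in scan 2.

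The other genes of this group were Smim18 at -0.48, Pdrg1 at -0.64, Rap1gds1 at -0.51, Tbcc at -0.31, Nop10 at -0.29 and Fkbpl at -0.34. Tbcc is a cofactor that folds tubulin, Nop10 belongs to the ribonucleoprotein that modifies ribosomal RNA, and Rap1gds1 is an exchange factor for small GTPases. For 11 of the 12 genes the pairs of the models did not overlap, the exception being Nop10, beside 2.64% of all fully measured genes in this direction. In all 12 the mean ratio was below 0 in SOD1-G93A and above 0 in TAU-P301L, both scans gave the same sign, and so did both dye orders. These 12 were chosen by p, so such agreement is a description and not a test. In glia, which played no part in the choice, 9 of the 11 that were measured had a difference below 0. Of all 10043 genes measured in glia, 57.3% had the same sign of difference as in motor neurons.

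In the opposite direction, Ccl19, Stk25 and Adarb1 led the genes that were higher in SOD1-G93A. Ccl19, on chromosome 4, encodes a chemokine that attracts lymphocytes and dendritic cells. Its ratios were 0.34, -0.04, -0.07 and 0.13 in SOD1-G93A and -1.22, -0.91, -0.42 and -0.91 in TAU-P301L, a difference of 0.96 (SE 0.17, unadjusted p = 7.34e-04, adjusted p = 0.609 by limma). The SOD1-G93A pairs lay around 0 and all TAU-P301L pairs were below it. A second Ccl19 probe gave 1.60, and near-identical copies of the gene in the mouse genome make the assignment of either probe uncertain.

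Stk25, on chromosome 1, encodes a kinase of the Golgi apparatus that acts in neuronal polarity. It stood at 0.71, -0.41, 1.08 and 0.43 in SOD1-G93A and -1.27, -1.30, -0.35 and -0.57 in TAU-P301L, a difference of 1.33 (SE 0.25, unadjusted p = 0.00103, adjusted p = 0.609 by limma). The groups overlapped in SOD1-G93A pair 2, the lowest of that model. In glia its ratios were 0.28 ± 0.45 (SD, n = 4) in SOD1-G93A and -0.55 ± 0.41 (SD, n = 4) in TAU-P301L.

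Adarb1, on chromosome 10, encodes ADAR2, the enzyme that edits the glutamate receptor transcript Gria2 in motor neurons. Its ratios were 0.11, 0.46, 0.29 and 0.23 in SOD1-G93A and -0.16, -0.24, -0.50 and -0.22 in TAU-P301L, a difference of 0.55 (SE 0.10, unadjusted p = 8.26e-04, adjusted p = 0.609 by limma). All pairs of one model were above 0 and all pairs of the other below it. A second Adarb1 probe, of lower signal, gave 0.11.

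The remaining genes of this group were Mgat3 at 0.41, Akr1b10 at 0.41, Mmaa at 0.34, AI854703 at 0.44, Ankrd13b at 0.55, Iqsec3 at 0.43, Clk3 at 0.52, Dis3l at 0.46 and Pcnx3 at 0.30. Mgat3 adds the bisecting sugar to N-glycans, Clk3 is a kinase of splicing factors, Dis3l a subunit of the cytoplasmic RNA exosome and Iqsec3 an exchange factor at inhibitory synapses. Mgat3 had the smallest spread in TAU-P301L, at -0.28, -0.28, -0.25 and -0.21. A second, less bright Clk3 probe gave -0.01. In 11 of the 12 genes the pairs did not overlap, Stk25 being the exception, beside 1.70% of all fully measured genes in this direction. These genes were chosen by p, so the lack of overlap is a description and not a test. In glia 10 of 12 had a difference above 0, where 57.3% of all genes had the same sign as in motor neurons. In 10 of these 12 the TAU-P301L mean was farther from 0 than the SOD1-G93A mean, against 5 of the 12 in the lower direction.

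**Figure D2:**
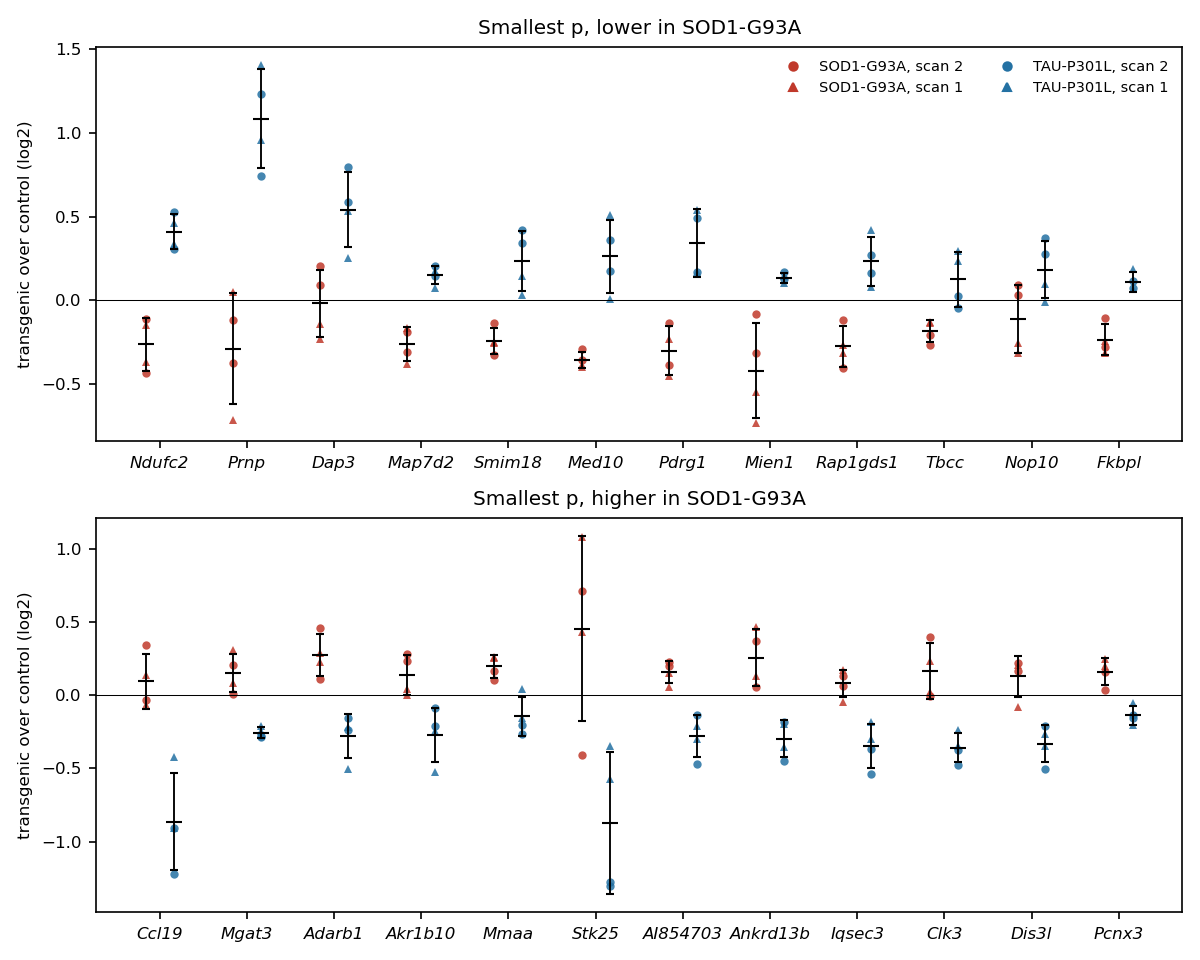
Log2 ratio of transgenic over control in each pair (vertical axis) for the 12 genes with the smallest p in each direction. Circles are scan 2 and triangles scan 1, red is SOD1-G93A and blue TAU-P301L, and black bars are mean ± SD over 4 pairs. Prnp in TAU-P301L stands highest, between 0.74 and 1.41, and the pairs of the models overlap for Nop10 and Stk25.

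By size, among genes with an unadjusted p under 0.05, Prnp, Rspo2 and Calca had the largest differences in the lower direction. Rspo2, a secreted agonist of Wnt signalling that motor neurons make, was at -0.80, -0.15, -0.27 and -0.59 in SOD1-G93A and 0.72, 0.59, 0.09 and 0.83 in TAU-P301L, a difference of -1.01 (SE 0.20). The groups did not overlap. Calca, the gene of calcitonin and of the neuropeptide CGRP, differed by -0.999 (SE 0.33), but its SOD1-G93A values were -1.50, 0.11, -0.11 and 0.35, so pair 1 alone was far below 0. The difference without that pair was -0.64. A second, less bright Calca probe gave -0.04.

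Gbe1, the glycogen branching enzyme, differed by -0.84 (SE 0.21), and its SOD1-G93A pairs were all below 0, between -1.12 and -0.31. Anxa5, a calcium-dependent phospholipid-binding protein, differed by -0.78 (SE 0.19), with TAU-P301L pairs at 0.65, 0.22, 0.69 and 0.25. Eml2 at -0.90 (SE 0.30), Pmvk at -0.85 (SE 0.28) and the potassium channel Kcnk9 at -0.80 (SE 0.31) had overlapping pairs. Eml2 was -0.58 without TAU-P301L pair 4. Kcnk9 missed an unadjusted p of 0.05 in 11 of 28 alternatives, more than Rspo2, Calca, Gbe1, Anxa5, Eml2 or Pmvk did, and it missed that threshold when any 1 of 6 of the 8 pairs was left out.

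Higher by size were Rps3 at 0.97 (SE 0.33), Map1b at 0.84 (SE 0.32), Rps28 at 0.81 (SE 0.32), Dctn3 at 0.81 (SE 0.32), Setd5 at 0.74 (SE 0.19) and Kcnj10 at 0.72 (SE 0.21). Dctn3 missed an unadjusted p of 0.05 in 13 of 27 alternatives and was 0.48 without SOD1-G93A pair 4, Map1b missed it in 11 of 27 and Rps28 in 9 of 28. Map1b, a microtubule-associated protein of growing axons, was at 1.51, 1.63, 0.70 and 0.07 in SOD1-G93A, and its difference was 0.13 in scan 1 and 1.55 in scan 2. A second Map1b probe gave 0.16. Rps3 and Rps28 are proteins of the small ribosomal subunit, families with many near-identical pseudogenes, and their pairs overlapped. Setd5 was at 0.57, -0.03, 0.01 and 0.71 in SOD1-G93A and at -0.31, -0.35, -0.52 and -0.52 in TAU-P301L, without overlap, and a second, less bright probe gave -0.09. Kcnj10, the Kir4.1 potassium channel that is known mainly from glia, was at 0.59, 0.88, 0.57 and 0.16 in SOD1-G93A and did not overlap with TAU-P301L.

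Proteasome genes lay below 0 in nearly every case. The proteasome degrades ubiquitin-tagged proteins, in a 20S core that cuts them and a 19S cap whose ATPases unfold them. Of 35 core and cap genes tested, 33 were lower in SOD1-G93A than in TAU-P301L, with a median of -0.21, while 48.6% of all genes tested lay below 0 with a median of 0.00. The share was 12 of 14 in the core, 6 of 6 among the cap ATPases, 15 of 15 among the other cap subunits and 8 of 9 among activators and assembly factors. Unadjusted p was under 0.05 for 7 of the 35, all lower, beside the 4.40% of all genes in that direction, and no adjusted p passed. That SOD1-G93A and TAU-P301L ratios of proteasome genes lie on opposite sides of 0 was known from earlier results of these data, so the count describes the difference and does not support it independently.

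Of the single subunits, Psmd3, a scaffold subunit of the cap, had the smallest p. It was at -0.28, -0.16 and -0.35 in the 3 SOD1-G93A pairs that measured it and at 0.10, 0.21, 0.48 and 0.51 in TAU-P301L, a difference of -0.56 (SE 0.11, unadjusted p = 0.00229, adjusted p = 0.609 by limma). All SOD1-G93A values were below all TAU-P301L values. Psmb5, the core subunit with chymotrypsin-like activity, was at -0.46, -0.18 and -0.28 in 3 SOD1-G93A pairs and 0.09, 0.19, -0.01 and 0.61 in TAU-P301L, a difference of -0.56 (SE 0.15).

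Psmd11 at -0.26 (SE 0.06), Psmd6 at -0.37 (SE 0.13), Psmd2 at -0.45 (SE 0.16), Psmb4 at -0.32 (SE 0.09) and Psmb1 at -0.29 (SE 0.11) were the other core and cap genes with an unadjusted p under 0.05. A less bright Psmd2 probe gave -0.14. Psmg3, an assembly chaperone, was at -0.36 (SE 0.11). Of the cap ATPases, Psmc1 had the smallest unadjusted p, with a difference of -0.29 (SE 0.15, interval -0.65 to 0.06). The immunoproteasome activator subunit Psme1 lay on the other side, at 0.17 (SE 0.08). In glia, 21 of the 27 core and cap genes measured lay below 0, with a median of -0.19. By group these were 8 of 11 in the core, 2 of 5 among the cap ATPases and 11 of 11 among the other cap subunits. The cap ATPases had a median of 0.09 in glia, on the other side of 0 from motor neurons. Of all genes measured in glia 4929 of 10043 lay below 0, with a median of 0.00.

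**Figure D3:**
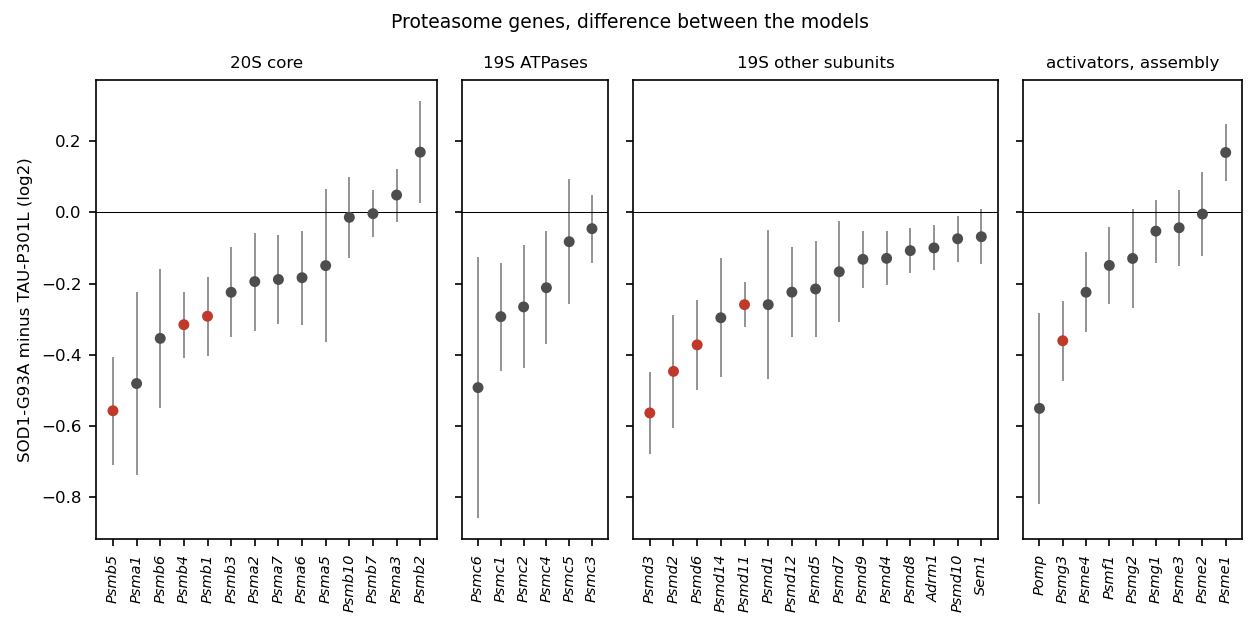
Difference between the models (SOD1-G93A minus TAU-P301L, log2, vertical axis) for 44 proteasome genes in 4 groups, with standard errors as bars. Red marks an unadjusted p under 0.05. Of the 35 core and cap genes, 33 lie below 0, from Psmd3 at -0.56, and the bars of many reach 0.

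By pair, the mean over the 35 core and cap genes was -0.24, -0.0034, -0.10 and -0.23 in SOD1-G93A and 0.14, 0.11, -0.0081 and 0.03 in TAU-P301L. Pair 2 of SOD1-G93A and pair 3 of TAU-P301L were near 0, where the models overlapped. Taken alone, the core means did not overlap, with -0.06 as the highest SOD1-G93A and -0.05 as the lowest TAU-P301L pair, and neither did those of the cap subunits without ATPase activity. The median difference was -0.14 in scan 1 and -0.25 in scan 2. Motor neuron markers also lay mostly below 0, with the values given further on. In the SOD1-G93A pairs the motor neuron marker mean was -0.42, -0.11, -0.20 and 0.16 and the oligodendrocyte marker mean 0.28, 0.04, 0.32 and -0.11. In TAU-P301L the motor neuron marker mean was 0.14, 0.20, -0.06 and 0.24. The part of cell composition in the proteasome values was not tested.

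The antioxidant response element is a sequence through which the factor Nrf2 and its relative Nrf1 act on proteasome genes, so the promoters were searched for its core. The core TGACNNNGC, on either strand in the 250 bases before the gene start, was present in 6 of the 33 core and cap genes with a promoter in the RefSeq table (GRCm38.p6), which are Adrm1, Psmb5, Psmb6, Psmc6, Psmd12 and Psmd9. Of all 27025 promoters 10.1% hold it. A match is a description of the letters only. The match of Psmb5 is shown because Psmb5 had the lowest difference of the core genes, and it lies on the minus strand at chr14:54618007-54618067, and capitals mark the core.

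Psmb5: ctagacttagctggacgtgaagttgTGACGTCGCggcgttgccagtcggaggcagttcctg

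Genes that hand proteins to the proteasome, chaperones and lysosomal genes are read against 48.6% of all genes below 0 and 4.40% called lower without adjustment. Of 17 ubiquitin genes tested, 11 lay below 0, and 3 of these had an unadjusted p under 0.05, led by Ube2d3, a ubiquitin-conjugating enzyme, at -0.61 (SE 0.18). Its pairs did not overlap. Of 27 heat shock and chaperone genes, 18 lay below 0, and 4 lower and 1 higher had an unadjusted p under 0.05. Hspa9, the mitochondrial Hsp70, was at -0.50 (SE 0.13) and Bag3, a co-chaperone of selective autophagy, at -0.61 (SE 0.18). Of 30 lysosome and autophagy genes, 19 lay below 0, and 4 lower and 1 higher had an unadjusted p under 0.05. Psap, the precursor of the saposins, was at -0.65 (SE 0.16). Less bright probes gave smaller differences, at -0.12 and -0.23 for Ube2d3, -0.17 for Hspa9 and -0.18 for Psap.

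Genes of cholesterol synthesis and uptake lay mostly below 0. Neurons make or take up cholesterol for membranes and synapses, and the enzymes are switched together by SREBP2. Of 22 genes tested, 17 were lower in SOD1-G93A, with a median of -0.10, and 6 of the 22 had an unadjusted p under 0.05, all lower, beside 4.40% of all genes. None passed after adjustment.

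Hsd17b7, which acts in the later steps from lanosterol, differed by -0.49 (SE 0.10), with SOD1-G93A pairs at -0.59, -0.61, -0.23 and 0.11. Nsdhl, which removes the C4 methyl groups, was at -0.38, -0.11, -0.03 and -0.28 in SOD1-G93A and 0.28, -0.01, 0.20 and 0.26 in TAU-P301L. Its pairs did not overlap, and the difference was -0.38 (SE 0.10), the same in both scans. Mvd and Pmvk, which act in the mevalonate steps, differed by -0.23 (SE 0.07) and -0.85 (SE 0.28), and a second Pmvk probe gave -0.72. Less bright probes gave -0.29 for Hsd17b7 and -0.17 for Nsdhl. Sqle, the squalene epoxidase, differed by -0.58 (SE 0.24), with pairs that overlapped. At the other end, Tm7sf2, a sterol reductase, lay at 0.30 (SE 0.16). By pair, the list mean was -0.11, -0.09, 0.01 and -0.21 in SOD1-G93A and 0.19, -0.11, 0.04 and 0.11 in TAU-P301L, where pair 2 overlapped with SOD1-G93A. In glia, 8 of the 16 genes measured lay below 0, beside 4929 of 10043 of all genes.

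SREBP2 binds next to the factor NF-Y, which recognises the CCAAT box. Of 17 genes of this list with a promoter in the table, 15 hold CCAAT (or its reverse complement ATTGG) in the 250 bases before the start. The share is 34.5% of all promoters and 36.2% of those of genes tested. Tm7sf2, which lay above 0, is among the 15. Here too a match is a description of the letters only. The sterol response element core TCACNCCAC was present in 1 of the 17, Hmgcs1, and in 1.04% of all. Stretches of 61 bases of 4 of the genes that were lower are shown, in the direction of transcription, with the CCAAT boxes in capitals. Hsd17b7 lies at chr1:169969206-169969266 (minus strand), Nsdhl at chrX:72918460-72918520 (plus strand), Mvd at chr8:122443423-122443483 (minus strand) and Pmvk at chr3:89454380-89454440 (plus strand).

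Hsd17b7: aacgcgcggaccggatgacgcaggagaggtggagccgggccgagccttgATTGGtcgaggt
Nsdhl: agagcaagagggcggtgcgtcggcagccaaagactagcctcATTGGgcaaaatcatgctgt
Mvd: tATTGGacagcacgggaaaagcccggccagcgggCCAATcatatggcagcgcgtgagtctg
Pmvk: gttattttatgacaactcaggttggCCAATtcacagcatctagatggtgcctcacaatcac

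A run of neighbouring genes on chromosome 4 was higher in SOD1-G93A. In the order of the RefSeq table, Cntfr, Rpp25l, Dctn3, Galt, Il11ra1, Ccl27a and Ccl19 were the genes tested in 1 stretch, and all 7 had a difference above 0. The stretch was picked after its values were seen. Galt, which converts galactose-1-phosphate, was at 0.29, -0.0040, -0.17 and 0.16 in SOD1-G93A and -0.25, -0.72, -0.41 and -0.55 in TAU-P301L, a difference of 0.55 (SE 0.13, unadjusted p = 0.00404, adjusted p = 0.609 by limma). The pairs did not overlap.

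Ccl27a, a chemokine with near-identical copies nearby, was at -0.71, -0.32, -0.30 and -0.28 in TAU-P301L and differed by 0.46 (SE 0.11). Dctn3, a dynactin subunit, was at -0.92, -0.44, -0.67 and -1.02 in TAU-P301L, and Cntfr, the receptor of ciliary neurotrophic factor that motor neurons carry, differed by 0.35 (SE 0.13). Rpp25l at 0.16 (SE 0.15) and Il11ra1 at 0.39 (SE 0.34) had intervals that included 0, and both were below 0 in scan 1, at -0.07 and -0.18. Genes just outside the stretch had intervals that included 0, with Enho at -0.07 (SE 0.22) and Dnaic1 at 0.03 (SE 0.06) on one side and Dnajb5 at 0.01 (SE 0.08) and Vcp, a disease gene of ALS, at 0.13 (SE 0.19) on the other. Over the 16 genes of the wider neighbourhood, the mean was -0.26, -0.26, -0.13 and -0.21 in the TAU-P301L pairs and 0.06, -0.05, -0.05 and 0.01 in the SOD1-G93A pairs. The 2 models did not overlap, and the distance from 0 was in the TAU-P301L pairs. These 16 genes hold the stretch picked by its values, so this separation is a description and not a test. In glia 9 of the 13 measured genes were not below 0, with a median difference of 0.10, and 4929 of all 10043 genes were below it.

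**Figure D4:**
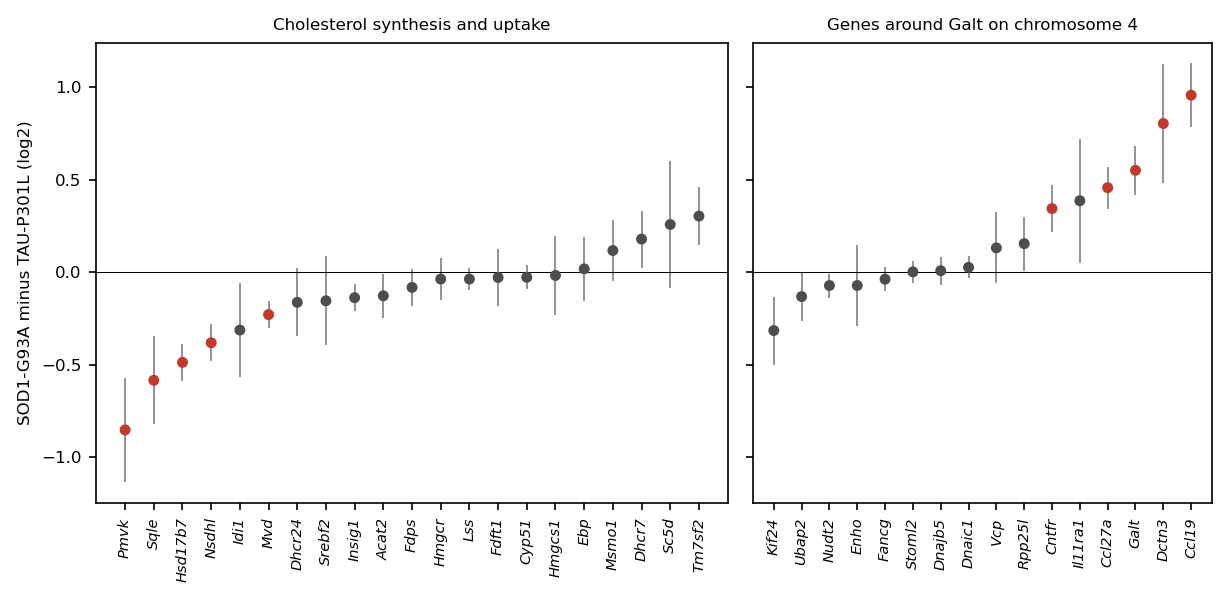
Difference between the models (SOD1-G93A minus TAU-P301L, log2, vertical axis) with standard errors, for 21 genes of cholesterol synthesis and uptake (left) and 16 genes around Galt on chromosome 4 (right), ordered by value. Red marks an unadjusted p under 0.05. Pmvk at -0.85 is lowest on the left, and Ccl19 at 0.96 and Dctn3 at 0.81 are highest on the right.

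Markers of cell types were examined next, and none passed after adjustment. Of 14 motor neuron markers tested, 11 lay below 0 (78.6%, against 48.6% of all genes), with a median of -0.24. In 4 the unadjusted p was under 0.05, all lower, beside 4.40% of all genes. Uts2b, the urotensin-related peptide of motor neurons, was at -0.35, -0.27, -0.32 and -0.07 in SOD1-G93A and 0.21, 0.04, -0.03 and 0.17 in TAU-P301L, a difference of -0.35 (SE 0.09) without overlap. Prph, the intermediate filament peripherin, differed by -0.23 (SE 0.08), and Slc5a7, the choline transporter, by -0.48 (SE 0.19). Prph was well above background in 8 of 16 extracts. Calca is given above.

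Markers of other cell types varied by list, against 51.4% of all genes above 0. All 10 oligodendrocyte markers tested had a difference above 0, with a median of 0.19. Olig2 at 0.15 (SE 0.06) and Mag at 0.58 (SE 0.23) had an unadjusted p under 0.05. Olig2 was well above background in 5 SOD1-G93A and 3 TAU-P301L extracts, and Ugt8a in 5 and 2. Both entered only through SOD1-G93A, the model where they were higher, so their place in this count depends on the filter. The interneuron marker Pax2 and the astrocyte marker Gfap, both above 0, entered in the same way. All 11 microglia markers were above 0 with a median of 0.08, as were 8 of 10 interneuron and 7 of 9 endothelial and pericyte markers. Astrocyte markers, with 6 of 11 above 0 (54.5%), and oligodendrocyte precursor markers, with 2 of 4 and a median of 0.01, were near the share of all genes. Without SOD1-G93A pair 1 the Mag difference was 0.35, and a second, less bright Mag probe gave 0.08. Slc1a2, the glutamate transporter of astrocytes, was at 0.62 (SE 0.24), without a value in SOD1-G93A pair 4. Its less bright probes gave 0.10 and 0.02. The list medians depended on the scan. Motor neuron markers had a median of -0.04 in scan 1 and -0.36 in scan 2, and oligodendrocyte markers -0.07 and 0.36.

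The summed levels overlapped between the groups. The log2 of the summed motor neuron marker signal ran from 12.10 to 14.97 in SOD1-G93A transgenic extracts and 12.51 to 15.20 in their controls. In TAU-P301L it ran from 14.05 to 15.04 and from 14.03 to 14.73. For oligodendrocyte markers the ranges were 11.08 to 13.91 and 10.63 to 13.58 in SOD1-G93A, and 12.62 to 13.89 and 13.07 to 13.67 in TAU-P301L. By pair, the mean oligodendrocyte ratio was 0.28, 0.04, 0.32 and -0.11 in SOD1-G93A and -0.49, -0.27, 0.37 and 0.03 in TAU-P301L. The part of these markers in the results on single genes was not tested.

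Haemoglobin genes, a mark of red cells in the captured tissue, had the widest spread. Hbb-bt was at 1.38, -1.44, 0.03 and -0.27 in SOD1-G93A and -1.24, -2.03, -1.64 and -0.15 in TAU-P301L, a difference of 1.19 with an SE of 0.63. Its interval, from -0.29 to 2.67, included 0, and the globin genes share near-identical copies. Without SOD1-G93A pair 1 the difference was 0.54. Hba-a1 differed by 0.37 (SE 0.15), and by 0.24 without the same pair.

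**Figure D5:**
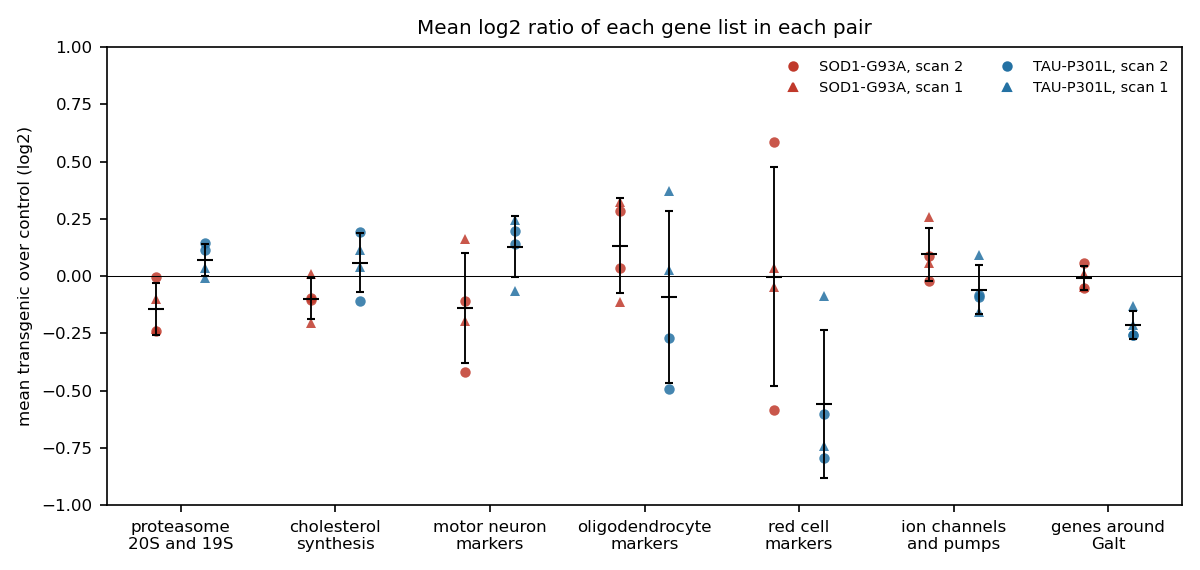
Mean log2 ratio of transgenic over control over the genes of each list (vertical axis), in each pair. Circles are scan 2 and triangles scan 1, red is SOD1-G93A and blue TAU-P301L, and black bars are mean ± SD over 4 pairs. Of the 7 lists shown, the models do not overlap for the genes around Galt and overlap for the other 6, and red cell markers spread most, from -0.80 to 0.59. The genes around Galt hold a stretch picked after its values were seen.

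Other groups tied to neuronal function were divided. Of 21 ion channel and pump genes tested, 16 lay above 0 (76.2%, against 51.4% of all genes), with a median of 0.09 that was -0.01 in scan 1. In 2 the unadjusted p was under 0.05, both higher, beside 2.58% of all genes. Kcnc1, the fast potassium channel Kv3.1, was at 0.61, 0.06, 0.34 and 0.08 in SOD1-G93A and -0.57, -0.31, -0.31 and -0.08 in TAU-P301L, a difference of 0.59 (SE 0.15) without overlap.

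Axonal transport genes went both ways: of 30 tested, 19 lay below 0 (63.3%, against 48.6% of all genes). Of the 30, 3 lower and 2 higher had an unadjusted p under 0.05, beside 4.40% and 2.58% of all genes. Dync1i1, an intermediate chain of dynein, was at -0.64, -0.05, -0.15 and -0.42 in SOD1-G93A and 0.29, 0.26, 0.04 and 0.28 in TAU-P301L, a difference of -0.54 (SE 0.14). Dynlt1b, a dynein light chain, was at 0.82, 0.37, 0.05 and -0.09 in SOD1-G93A and all of its TAU-P301L pairs were between -0.38 and -0.20, a difference of 0.54 (SE 0.14). Neither gene's pairs overlapped, and the 2 differences had opposite signs. Both genes were named by their p among the 30. The Dynlt1b difference was 0.29 in scan 1 and 0.80 in scan 2.

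A list of genes of human motor neuron and tau disease also held Prnp, the prion protein gene. Of its 26 genes tested, 16 lay below 0 (61.5%, against 48.6% of all genes), Prnp included. In 5 of the 26, Prnp among them, the unadjusted p was under 0.05, all lower, beside 4.40% of all genes in that direction. Besides Prnp and Prph, these were Tuba4a at -0.77 (SE 0.26), C9orf72 at -0.31 (SE 0.10) and Tardbp, which encodes TDP-43, at -0.22 (SE 0.09). A second, less bright Tardbp probe gave 0.01. Tuba4a was at -0.86, 0.32, -0.40 and -0.68 in SOD1-G93A, where pair 2 overlapped with TAU-P301L, and its other probes gave -0.16 and -0.01. Of 34 RNA-binding and splicing genes, 21 lay below 0 (61.8%), with Snrnp25 at -0.56 (SE 0.11) and pairs that did not overlap. A less bright Snrnp25 probe gave -0.17. Of 27 antioxidant genes 16 lay below 0 (59.3%), with the mitochondrial peroxiredoxin Prdx3 at -0.32 (SE 0.09). The cytosolic Prdx2 was at 0.41 (SE 0.16), and at 0.27 without SOD1-G93A pair 4 or without TAU-P301L pair 3. Its less bright probes gave 0.03 and -0.30, so the direction of Prdx2 depended on the probe.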

How the data were processed

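Laser-captured motor neurons were hybridised to 2-colour Agilent mouse arrays (16 of the 32 arrays of the series; the other 16, of glia, were used only for values named as glia). Per the file headers, the authors deposited scanner output with mean and background intensity in each channel and a log10 ratio, made with Feature Extraction 8.5.1.1 for motor neurons and 9.5.1.1 for glia. The deposited value table holds log10 ratios whose absolute r with the scanner ratio was 0.982 to 0.999, transgenic over control in 32 of 32 columns, and served as an alternative.

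In R 4.3.3, limma 3.58.1 corrected the intensity background (normexp, offset 50) and applied loess within arrays, giving control spots no weight and leaving out spots marked as outliers. Each log2 ratio was turned to transgenic over control by the labels' dyes, and the 2 arrays of a pair were averaged. The brightest probe stands for a gene. Of 41174 probes, 23483 were named by accession, 6678 by symbol and 2893 by synonym in the RefSeq table, and 8120 keep their array name. The fit (lmFit, eBayes; model and scan) covered the 8 pairs, with Benjamini-Hochberg adjustment over 13745 genes. A pair without a value for a gene was left out for that gene. The fit was tested on simulated data. The number of arrays limits the precision. Each extract is from a separate mouse, per the labels.

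The named genes are Sod1, Mapt and Prnp, then the 12 with the smallest p and the 8 with the largest difference (unadjusted p under 0.05) in each direction among symbols with all 8 pairs measured, then up to 4 of each list by p. Some genes that the rule names are not reported here. Sqle, Tm7sf2, Rpp25l, Il11ra1, Enho, Dnaic1, Dnajb5 and Vcp were named after their values were seen, as were the genes with motifs. The comparison and the lists were chosen with earlier results of these data known. Alternatives changed the scan term, background correction, normalization, filter, probes, dye order and the pairs included.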

Additional observations from a re-analysis of the deposited data

Results flagged for a closer look

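The Prnp difference of -1.37 had an exact permutation p of 0.0286 between the models, the smallest that 4 against 4 pairs allow, and of 0.0556 when pairs were exchanged only within scans, the smallest of 36 ways and above 0.05, with every TAU-P301L pair above every SOD1-G93A pair. Adjusted over the 3 genes tested this way, the first p was 0.0858. The comparison was chosen with earlier results of these data known, so these p describe the difference and do not support it independently.

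In 4 of 180 sets of 4 pairs (of named genes and of list means), 1 pair lay far from the other 3, where chance gives about 1 in 20 sets (9). Ccl27a in TAU-P301L pair 1 was at -0.71, against -0.32 to -0.28 in the others. Dynlt1b in TAU-P301L pair 4 was at -0.38, against -0.23 to -0.20. Dync1i1 in TAU-P301L pair 3 was at 0.0410, against 0.26 to 0.29. Il11ra1 in TAU-P301L pair 2 was at -1.07, against -0.11 to 0.02.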

How the results depend on the processing

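The count of genes past an adjusted p of 0.05 was 0 under all 28 alternatives, with a lowest adjusted p of 0.275 (no background correction), and unadjusted counts ran from 97 (of 1171 genes above background in all 16 extracts) to 1396 (of 27541 genes without a filter). Median centring gave 289, and leaving out TAU-P301L pair 4 gave 504. With the replicate block, the pair number in place of the scan, the count past the threshold was 0, 953 genes had an unadjusted p under 0.05, and Prnp stayed at -1.37. The numbers do not pair the mice, since same-numbered pairs of the models correlated across genes with r of 0.0012, -0.0055, 0.0696 and 0.2199.

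Of 2306 values of 86 named genes under the alternatives, 1954 kept direction and side of an unadjusted p of 0.05, 316 lost that side, 12 gained it and 24 reversed. The Prnp difference stayed between -1.75 and -1.19. Leaving out 1 pair at a time gave -0.230 to -0.0777 for Sod1, past an unadjusted p of 0.05 without SOD1-G93A pair 4, and -0.133 to 0.203 for Mapt, which was -0.0816 without TAU-P301L pair 1. Mapt also reversed in scan 1 alone (-0.273), with the first dye order (-0.0696), median centring (-0.178) and array weights (-0.0471). Scan 1 alone reversed Il11ra1 (-0.183) and Rpp25l (-0.0663), and scan 2 alone Enho (0.327) and Vcp (-0.0101). Median centring reversed Rpp25l (-0.153) and Vcp (-0.191), the switched dye order Dnajb5 (-0.0020) and Enho (0.0812), array weights Dnajb5 (-0.0043), and leaving out pair 3 of both models Enho (0.195). Leaving out 1 pair gave -0.0029 to 0.0602 for Dnaic1, -0.0343 to 0.0519 for Dnajb5, -0.273 to 0.0984 for Enho and -0.0264 to 0.349 for Vcp. The cause was not tested.

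The medians of the 3 core and cap proteasome lists stayed below 0 in every alternative, and those of the oligodendrocyte, Galt and ion channel lists changed sign in 1 each. Signal over background limits scan 1 most: 2423 of the 13745 genes tested had no scan 1 extract well above background.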
